A study of Mus musculus with 16 samples.

Results

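The E proteins and their Id inhibitors were followed in 16 libraries of mouse CD8+ T cells, through the 5 genes Tcf3, Tcf12, Tcf4, Id2 and Id3. These are 5 of 55536 annotated genes in the gene count table, picked by their GENCODE M21 symbols, and all 5 were deep enough to be tested. They hold 103 of 141862 annotated transcripts and 119 of 125520 nodes. A node is a stretch of exon, a transcript start or a transcript end that the splicing table scores on its own.

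CD8+ T cells from OT-I transgenic mice, whose T cell receptor recognises the ovalbumin peptide SIINFEKL, were electroporated with Cas9 bound to a guide RNA and transferred into C57BL/6J recipients. Both groups then received SIINFEKL plus activating antibodies against OX40 and 41BB, a pair of costimulatory receptors, and the cells were sorted from spleen and lymph nodes on day 4 by the sample labels. The study's methods give a slightly earlier time. Its results mention a stimulation between purification and sequencing, which its RNA methods do not describe, so whether these cells were restimulated is unclear. The 8 Control gRNA libraries had a scrambled guide and the 8 Tardbp gRNA libraries had a guide against Tardbp, the gene of the RNA-binding protein TDP-43. Cells were bulk populations and not clones, so edited and unedited cells within a library cannot be told apart, and sorting relied on the congenic CD45 markers of the donor. The labels give no age for the animals, and the study's methods describe OT-I donors that lacked Rag1 or Rag2.

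E proteins are basic helix-loop-helix transcription factors that bind E-box sites in DNA as dimers, with one another or with tissue-restricted partners. Id proteins keep the helix-loop-helix but lack the basic, DNA-binding stretch, so an E protein paired with an Id protein does not bind its site. In CD8+ T cells, Id2 is known for its part in effector cells and Id3 for its part in memory precursors, and signalling through the T cell receptor is known to raise Id3 by way of the Egr factors.

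Total counts ran from 73649630 to 93893357 in the Control libraries and from 56016533 to 94801105 in the Tardbp libraries. The deposited RNA concentration was 34.9 to 197.1 in Control and 10.1 to 24.0 in Tardbp, with no unit in its header. These ranges did not overlap, so concentration and guide cannot be told apart. A deposited letter for sex was M in 3 Control and 5 Tardbp libraries and F in the others. Tardbp itself, in CPM, the count scaled to a fixed library total with TMM, was lowest at 172, median 198 and highest at 207 in Control. In the Tardbp libraries it was lowest at 110.4, median 136 and highest at 147. The groups did not overlap, and the log2 fold change was -0.51 (SE 0.056, edgeR adjusted p = 8.07e-07). CD8 T cell markers were all detected, with a summed level of 5159 to 6249 CPM in Control and 7076 to 8871 CPM in Tardbp libraries. Of the 9, 8 were called higher and 1, Cd5, lower, where 23.5% and 23.3% of all tested genes were. The Cd5 call was lost without any 1 of Control libraries 3 and 5 and Tardbp library 3, with adjusted p-values of up to 0.0579.

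Of the 5 genes, Id3 rose and Tcf4 fell in the Tardbp libraries, while Tcf3, Tcf12 and Id2 were not called. Thus 2 of 5 were called, where 46.7% of the 16650 tested genes were, 23.5% higher and 23.3% lower. Under upper-quartile scaling 61.2% of called genes were higher, against 50.2% with TMM. Only Id3 had groups that did not overlap in CPM, a pattern that 16.9% of tested genes showed. The p-values measure the spread between these libraries, which came from individual recipients by the study's text. Its methods divide donor cells by group for electroporation before transfer, so recipients of the same guide may share a pool of edited cells. How many electroporations lie behind each group is not given, and the p-values do not measure the spread between them. In bulk RNA, fewer cells of a type and less RNA per cell cannot be told apart for any gene below.

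**Figure D1:**
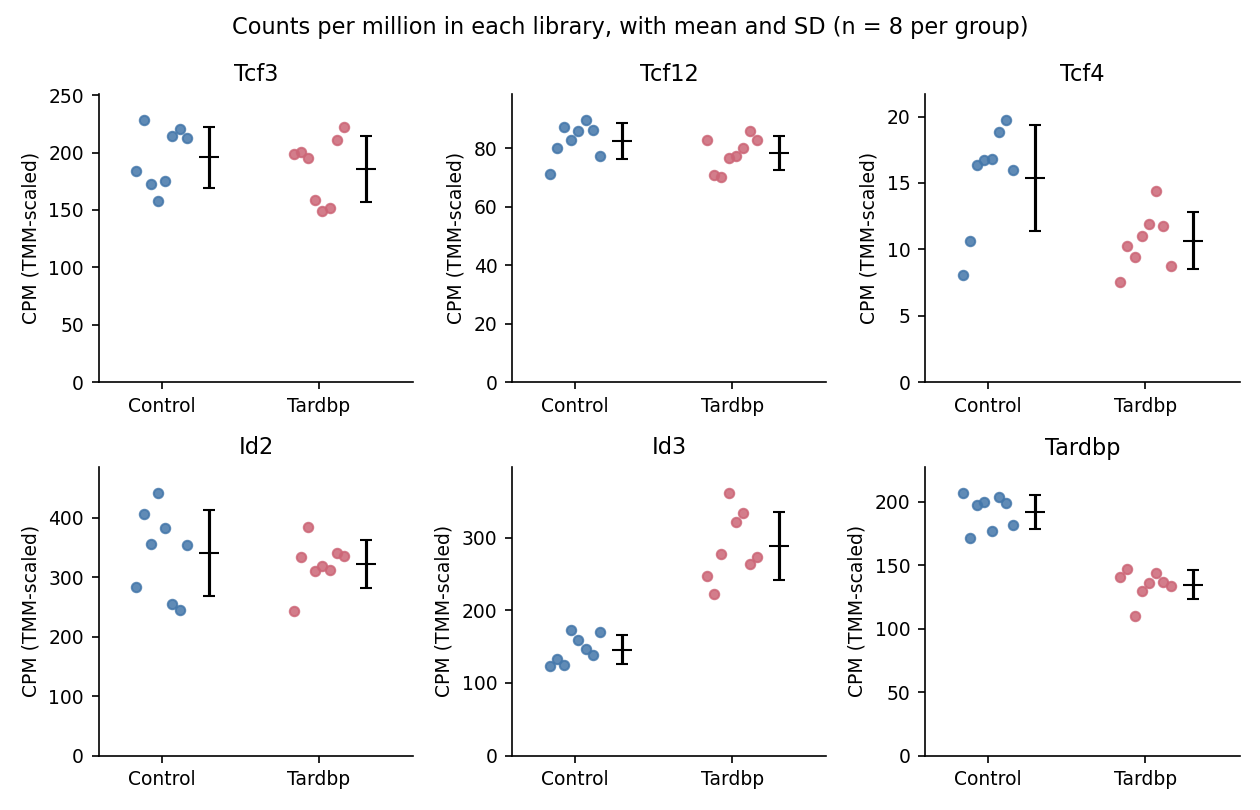
Level of each gene in every library, in TMM-scaled CPM on axes that start at 0. Points are the 8 libraries of each group and bars the mean with its SD. The Id3 points of the Tardbp libraries, from 223 to 361, all lie above the Control points, from 123 to 173, and those of Tcf4 overlap at 7.51 to 14.4 and 8.09 to 19.8.

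Tcf3 encodes the E2A proteins, E12 and E47, and lies at chr10:80409514-80433647 on the minus strand of GRCm38. Its Control libraries were lowest at 158, median 198 and highest at 229 CPM. The Tardbp libraries were lowest at 149, median 197 and highest at 223 CPM. The groups overlapped almost fully, and 4 Tardbp libraries lay on each side of the Control median. The log2 fold change was -0.07 (SE 0.096), with a 95% interval of -0.28 to 0.13 and an adjusted p of 0.550 in edgeR's quasi-likelihood test. Libraries of 1 group differed as much as the groups did, from 158 to 221 CPM among Control libraries 4 to 8 and from 149 to 223 CPM among Tardbp libraries 4 to 8.

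The proteins E12 and E47 differ by which of 2 neighbouring exons encodes the basic helix-loop-helix, and this choice sets how strongly the Tcf3 product is known to bind DNA as a homodimer. The exons are printed from the GENCODE M21 transcripts, 5′ to 3′, because the Tcf3 isoform shares below rest on telling them apart. Capitals mark bases that are identical in the alignment of the pair, 178 of 223 aligned bases or 79.8%. The E12 exon is 236 bases at chr10:80412827-80413062 and the E47 exon 224 bases at chr10:80410398-80410621, both on the minus strand of GRCm38 and both coding.
E12 exon: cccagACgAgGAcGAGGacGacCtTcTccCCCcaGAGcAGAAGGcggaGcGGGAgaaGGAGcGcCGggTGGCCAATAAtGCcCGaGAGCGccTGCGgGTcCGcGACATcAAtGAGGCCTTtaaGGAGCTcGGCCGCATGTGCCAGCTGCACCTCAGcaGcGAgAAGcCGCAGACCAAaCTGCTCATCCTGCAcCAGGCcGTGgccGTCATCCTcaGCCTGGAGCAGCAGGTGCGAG
E47 exon: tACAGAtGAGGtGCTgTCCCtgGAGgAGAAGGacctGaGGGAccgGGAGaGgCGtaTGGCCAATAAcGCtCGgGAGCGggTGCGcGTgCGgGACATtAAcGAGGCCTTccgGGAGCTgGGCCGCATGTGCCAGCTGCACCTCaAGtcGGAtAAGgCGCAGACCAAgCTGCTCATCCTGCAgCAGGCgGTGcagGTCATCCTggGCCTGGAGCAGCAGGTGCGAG

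Neither exon was called for a difference in share. In the deposited percent-spliced-in (Psi) values, the E12 exon had 0.224 in Control and 0.223 in Tardbp, and the E47 exon had 0.759 and 0.764. These values are pooled over each group by the authors and carry no error, and which of the deposited columns is Control was taken from the study's own table of the same nodes, since the headers do not name the groups. From the transcript counts, scaled by transcript length, E47 transcripts took 52.3% ± 4.16 (SD, n = 8) of the E12 and E47 total in Control and 49.1% ± 5.76 (SD, n = 8) in Tardbp libraries. The libraries ran from 45.3% to 57.2% and from 43.2% to 58.1%, so the groups overlapped, with a difference of -3.19 percentage points and an exact two-sided permutation p of 0.217. The smallest p that 8 against 8 libraries allow is 0.000155, and 7 isoform classes were tested in all, with unadjusted p-values. The 2 tools set E47 at different levels, near 0.76 by Psi and near 52% by transcript counts, on the same libraries.

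Tcf12 encodes HEB, the partner of E2A in T cell precursors, and lies at chr9:71842688-72111871 on the minus strand. Its Control libraries were lowest at 71.0, median 84.3 and highest at 89.7 CPM. Its Tardbp libraries were lowest at 69.9, median 78.6 and highest at 85.8 CPM. It varied least of the 5 genes, with a coefficient of variation of 7.41% in Control and 7.30% in Tardbp, and 7 of 8 Tardbp libraries lay below the Control median. The log2 fold change of -0.07 (SE 0.055) had a 95% interval of -0.19 to 0.041 and an adjusted p of 0.283.

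Tcf4 encodes E2-2, the E protein that specifies plasmacytoid dendritic cells, and lies at chr18:69343356-69689079 on the plus strand. It was the lowest of the 5. Its Control libraries were lowest at 8.09, median 16.5 and highest at 19.8 CPM. The Tardbp libraries were lowest at 7.51, median 10.6 and highest at 14.4 CPM. All 8 Tardbp libraries lay below the Control median, and 6 of 8 Control libraries lay above the highest Tardbp library. The 2 that did not were Control libraries 1 and 2, at 8.09 and 10.6 CPM. The mean was 15.4 ± 4.00 (SD, n = 8) in Control and 10.6 ± 2.15 (SD, n = 8) in Tardbp, which is -0.53 on the log2 scale (SE 0.165; adjusted p by edgeR 0.0124).

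The Tcf4 call held on leaving out any 1 library, with a log2 fold change from -0.64 to -0.47. It was lost with RNA concentration as a covariate (-0.81, adjusted p = 0.126) and among libraries numbered 1 to 3 alone (-0.40, adjusted p = 0.361). Within the letters, the log2 ratio of means was -0.40 among M libraries and -0.59 among F libraries. Within the numbers, it was -0.37 in libraries 1 to 3 and -0.61 in libraries 4 to 8, a division known from earlier results and absent from the labels.

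Because Tcf4 and Id3 are also strongly expressed outside T cells, markers of B cells and of plasmacytoid dendritic cells were read beside them. Of 12 B cell markers, 9 were tested and 3 were called higher, Bank1, Cd22 and Ighm, where 23.5% of all tested genes were. The 12 summed to 394 to 473 CPM in Control and 561 to 729 CPM in Tardbp libraries. Ighm alone made most of that sum, at 404 CPM in Control and 640.4 CPM in Tardbp. A mean under 1 CPM in both groups was found for 7 of the 12, and Pax5, which defines B cells, was at 0 in 15 of 16 libraries. Of 10 plasmacytoid markers, 5 were tested and 1 was called higher, Pacsin1, with a summed level of 80.1 to 111 CPM in Control and 109 to 127 CPM in Tardbp. Siglech, which defines these cells, was at 0 in 15 of 16 libraries. The plasmacytoid sum rested on few genes, with Pacsin1 at 5.33 and 21.5 CPM, Irf8 at 48.9 and 58.8 CPM (adjusted p = 0.077, edgeR) and Runx2 at 35.9 and 34.6 CPM (adjusted p = 0.694, edgeR), and 7 of the 10 markers had a mean under 1 CPM in both groups. Their part in the Id3 and Tcf4 differences was read only with the summed markers of both lists, without Pacsin1, as a covariate. In this setting, chosen after seeing the data, Id3 was 0.52 (edgeR adjusted p = 0.641) and Tcf4 was -0.37 (edgeR adjusted p = 0.887). There, 0 genes of 16650 were called, against 1813 at an unadjusted p under 0.05. That marker sum did not overlap between the groups.

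Id2, the inhibitor at the highest level, lies at chr12:25093799-25097140 on the minus strand. Its Control libraries were lowest at 245, median 355 and highest at 441 CPM. The Tardbp libraries were lowest at 243, median 326 and highest at 384 CPM. The Tardbp range lay within the Control range but for its lowest library. The log2 fold change was -0.08 (SE 0.115), with a 95% interval of -0.32 to 0.16 and an adjusted p of 0.608.

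Id3 lies at chr4:136143497-136145755 on the plus strand. Its Control libraries were lowest at 123, median 143 and highest at 173 CPM. The Tardbp libraries were lowest at 223, median 276 and highest at 361 CPM. Every Tardbp library lay above every Control library. The mean rose from 146 ± 19.5 (SD, n = 8) to 288 ± 46.8 (SD, n = 8), 1.97-fold, which is 0.98 on the log2 scale (SE 0.098; adjusted p by edgeR 3.29e-07). Of all tested genes, 8.61% had a larger log2 fold change in size.

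The Id3 difference was nearly the same within each division of the libraries. The log2 ratio of means was 0.93 among M libraries and 1.01 among F libraries, and 0.98 in libraries 1 to 3 and in libraries 4 to 8 alike. It ran from 0.90 to 1.03 on leaving out 1 library at a time, and was 0.88 with RNA concentration as a covariate (adjusted p = 0.0102). No gene was called for a group difference that depended on the letter, 0 of 16650 in edgeR, with 662 at an unadjusted p under 0.05, and the unadjusted p of the 5 genes ran from 0.297 for Id2 to 0.757 for Tcf12.

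**Figure D2:**
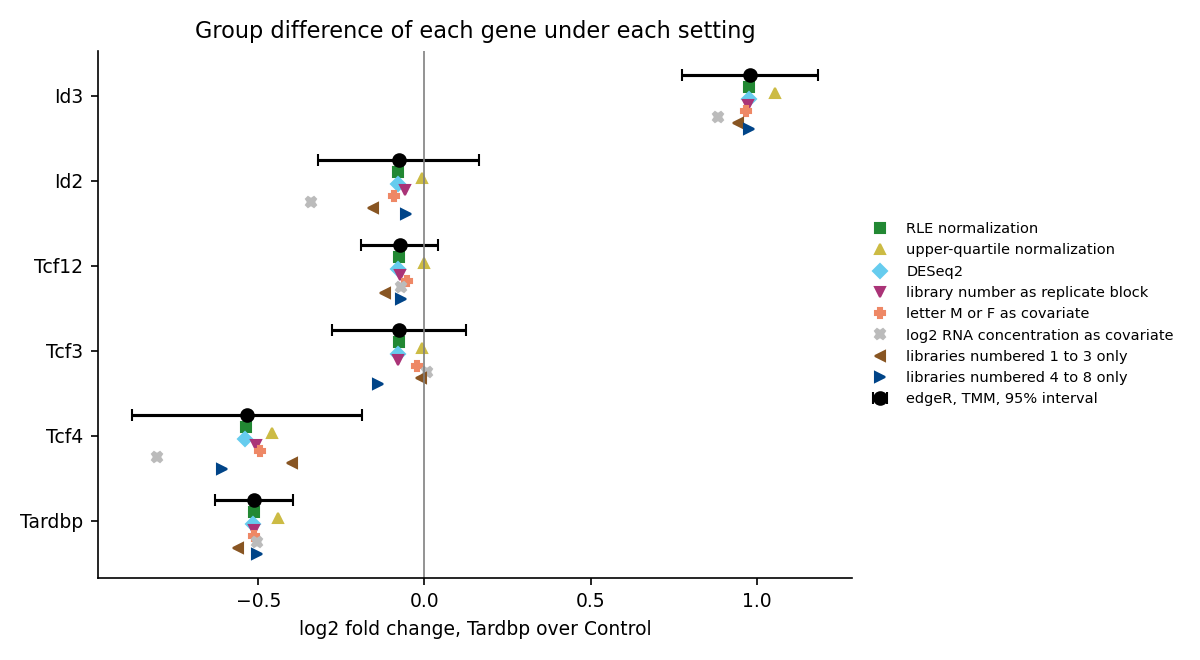
Log2 fold change of each gene, Tardbp over Control, on the horizontal axis. Black points are the edgeR estimate with its 95% interval and coloured symbols are other normalisations, tests, covariates and library subsets. The fit with the B cell and plasmacytoid marker level as covariate is not drawn. Neither are the fits without the filter or without 1 library. With that marker covariate Id3 was at 0.52 and Tcf4 at -0.37. Id3 lies between 0.88 and 1.05 in the settings drawn and Tcf4 between -0.81 and -0.40, whereas the intervals of Id2, Tcf12 and Tcf3 include 0.

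Levels were compared between genes per transcript length, as TPM, the share of transcripts scaled to a fixed library total. The order was Id2, Id3, Tcf3, Tcf12 and Tcf4 in both groups. In Control libraries the mean levels were 444 ± 96.9, 191 ± 26.1, 114 ± 16.6, 27.9 ± 3.10 and 9.09 ± 2.66 TPM (SD, n = 8). In Tardbp libraries they were 401 ± 51.6, 359 ± 51.8, 104 ± 16.9, 26.2 ± 2.22 and 5.66 ± 1.21 TPM (SD, n = 8). Id2 and Id3 were separate in Control, where Id3 was above Id2 in 0 of 8 libraries, and not in Tardbp, where Id3 was above Id2 in 4 of 8. Every other neighbouring pair kept its order in all 16 libraries.

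The Id3 share of the inhibitor pool separated the groups, whereas the size of the pool overlapped. That share restates the Id3 difference beside an Id2 level that was not called, and is not a separate result. Id3 took 30.5% ± 4.4 (SD, n = 8) of the summed Id2 and Id3 level in Control, from 24.8% to 36.7%. In Tardbp libraries it took 47.2% ± 5.10 (SD, n = 8), from 40.5% to 53.9%, with no overlap. The summed Id level was 635 ± 112 TPM in Control and 760.2 ± 67.5 TPM in Tardbp (SD, n = 8), and the summed E protein level was 151 ± 18.5 and 136 ± 18.4 TPM. The ratio of summed Id to summed E protein RNA ran from 2.91 through a median of 4.27 to 6.24 in Control and from 4.30 through 5.48 to 7.15 in Tardbp. All 8 Tardbp libraries lay above the Control median of this ratio, and the groups overlapped. These ratios are of RNA and say nothing of protein.

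Within the E protein pool, Tcf3 took 75.4% ± 3.32 in Control and 76.3% ± 2.83 in Tardbp libraries (SD, n = 8). Tcf12 took 18.6% ± 2.18 and 19.6% ± 2.44. Tcf4 took 6.03% ± 1.68 and 4.19% ± 0.794, and all 8 Tardbp libraries lay below the Control median of its share.

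**Figure D3:**
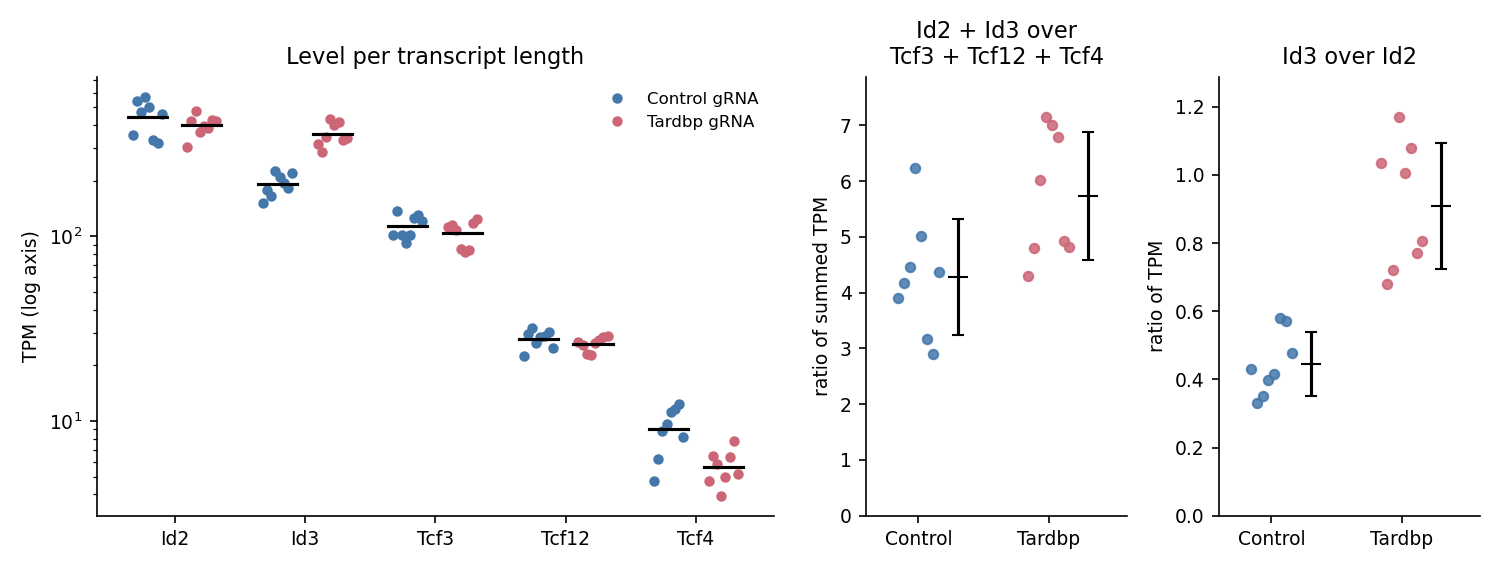
Left, level of each gene per transcript length in TPM on a log axis, with points for libraries and lines for the group means. Middle and right, the ratio of summed Id2 and Id3 to summed Tcf3, Tcf12 and Tcf4, and of Id3 to Id2, with mean and SD (n = 8 per group). The Id3 to Id2 ratio restates the Id3 difference, and runs from 0.33 to 0.581 in Control and from 0.68 to 1.17 in Tardbp. The summed ratios overlap.

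The isoforms were read from transcript counts and from Psi. Of the 103 transcripts, 33 passed the filter on low counts, 10 of Tcf3, 9 of Tcf4, 8 of Tcf12, 3 of Id2 and 3 of Id3, and 38 were at 0 in all libraries, 32 of them of Tcf4. Those called were Id3-201 and Tcf12-212, 2 of 33, both higher, where 16.6% of 40897 tested transcripts were called, 8.5% higher and 8.14% lower. Id3-201 held 98.1% of Id3 counts in Control and 98.6% in Tardbp, so its log2 difference of 0.95 (SE 0.105; adjusted p by edgeR 1.37e-05) is the change of the gene. Id2-201 held 92.9% and 93.0% of Id2 counts.

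Tcf12-212, an annotated retained-intron transcript that ends at position 71942445 of chromosome 9, upstream of all the 3′ end nodes described below, is given here by a choice made with its values in view. It took 1.58% at the lowest, 1.93% at the median and 2.66% at the highest of Tcf12 counts in Control libraries. In Tardbp libraries it took 3.78%, 4.25% and 6.22%. The groups did not overlap, but how many of all tested transcripts showed this was not counted. Its level went from 1.65 ± 0.265 to 3.67 ± 0.605 CPM (SD, n = 8), which is 1.16 on the log2 scale (SE 0.144; adjusted p by edgeR 3.73e-05), while the gene as a whole was at -0.07. Its share differed by 2.82 percentage points (limma adjusted p = 0.000966), short of the study's threshold of 0.1 for a share difference. By limma, 0 of the 33 transcripts passed both that threshold and an adjusted p under 0.05, where 0.635% of 32777 tested shares did. On the adjusted p alone 1 of 33 passed, where 4.42% did, and 4 had an unadjusted p under 0.05.

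The 2 main Tcf12 transcripts, both long forms, were Tcf12-202 at 46.2% ± 15.1 and 47.2% ± 18.9 and Tcf12-201 at 44.3% ± 15.8 and 38.5% ± 20.8 of Tcf12 counts (SD, n = 8). The spread between libraries of 1 group was far larger than the difference between the groups. In all, 5 Tcf3 transcripts took over 5% of Tcf3 counts. Tcf3-210 took 24.0% and 23.6%, Tcf3-201 took 19.5% and 22.2%, Tcf3-202 took 19.9% and 20.5%, Tcf3-204 took 17.9% and 18.0%, and Tcf3-207 took 9.30% and 5.0%. None of these shares was called, and their adjusted p ran from 0.418 for Tcf3-201 to 0.993 for Tcf3-204.

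Tcf4 had 7 transcripts over 5%, 6 of which passed the filter on low counts, and their shares moved widely between libraries of 1 group. Tcf4-204 took 30.3% ± 19.3 in Control and 17.9% ± 19.0 in Tardbp (SD, n = 8), with libraries from 1.12% to 59.9% and from 0 to 45.5%. Tcf4-206, the one that did not pass and was not tested, took 13.2% ± 19.7 and 4.14% ± 8.27 (SD, n = 8), with counts in 4 Control and 2 Tardbp libraries. The others had group means from 4.06% for Tcf4-246 in Control to 16.5% for Tcf4-203 in Tardbp. Tcf4-202 took 8.70% and 10.9%, Tcf4-258 took 8.19% and 11.4%, and Tcf4-207 took 8.71% and 16%. None of the tested Tcf4 shares was called. The gene was at 15.4 and 10.6 CPM, with 496 to 1715 counts per library over all its transcripts. Tcf12, with 4682 to 8166 counts per library, also had shares that moved widely, and the cause was not tested.

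The other isoform classes overlapped between groups as well. Long Tcf4 forms took 30.2% and 33.8% of length-scaled Tcf4 transcripts (exact permutation p = 0.765), and short forms 57.7% and 49.3% (p = 0.483, exact permutation). Distal ends of Tcf4 took 34.3% and 43.4% (exact permutation p = 0.431). Short Tcf12 forms, which start at a downstream promoter, took 1.90% ± 0.981 and 2.88% ± 1.51 (SD, n = 8; exact permutation p = 0.141). By counts in place of length-scaled counts, a setting chosen after seeing the data, that difference was 1.26 percentage points with an exact permutation p of 0.0446.

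In the Psi table, 1 of the 119 nodes had a Psi difference above 0.1 with a probability above 0.9, where 0.473% of all nodes did. The study also set a minimum of total reads per event, which was not applied here, so these counts are over a wider set of nodes than the study's. It was a 3′ end of Tcf12, node 27, 789 bases at chr9:71844723-71845511. Its Psi was 0.343 in Control and 0.105 in Tardbp. The 5 annotated ends of Tcf12 follow each other in 1 last exon, and their Psi values sum to 1.0 in each group, so a Psi is the share of transcripts that end there. The 2 upstream ends, nodes 26 and 27, held 0.411 in Control and 0.108 in Tardbp, and the 3 downstream ends, nodes 28 to 30, held 0.592 and 0.895. Node 28, which ends 450 bases past node 27, went from 0.480 to 0.747, the largest Psi difference of Tcf12, without passing the probability threshold. Nodes 26, 29 and 30 were at 0.0683, 0.0966 and 0.0159 in Control and at 0.00280, 0.130 and 0.0175 in Tardbp.

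The last 30 bases of 1 transcript for each of these nodes are printed in transcript order, since the finding is a choice among them. They are read from GENCODE M21 (GRCm38, chr9, minus strand), and capitals mark AATAAA or ATTAAA, the letters that usually signal 3′ end cleavage. The windows lie at chr9:71845512-71845541 for Tcf12-218 (node 26), chr9:71844723-71844752 for Tcf12-221 (node 27), chr9:71844273-71844302 for Tcf12-207 (node 28), chr9:71844268-71844297 for Tcf12-201 (node 29) and chr9:71842688-71842717 for Tcf12-202 (node 30).
Tcf12-218: gatgacttttcctggtgagtctccgggaca
Tcf12-221: ttatttttcactgtagctagtcttttatac
Tcf12-207: AATAAAtgtgccatccttttttttaacata
Tcf12-201: atgtgccatccttttttttaacatagtaaa
Tcf12-202: tgagtgctgggATTAAAggcatgtgcacca

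The windows of Tcf12-207 and Tcf12-202 hold such a signal and the other 3 do not, where 44.1% of 58797 protein-coding transcripts hold one in their last 30 bases. The Tcf12-201 window begins inside the signal of Tcf12-207. TDP-43 is known to bind UG repeats, so TGTGTG was counted on the transcript strand, overlapping matches included, in the nodes of over 5 bases. Node 27 held 1 match, where 36.2% of protein-coding transcript ends of that length hold one or more. Nodes 26 and 28 held 0, where 44.5% and 22.9% of ends of their lengths hold any. Node 30 held 25, in a TG run of 55 bases, where 0.603% of ends of that length hold as many. A match in these letters is a description and not a binding site.

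The end choice could not be followed library by library. Tcf12-221, the only annotated transcript ending at node 27, had 0 counts in all 16 libraries. The share of Tcf12 transcripts with a proximal end was 2.83% ± 3.04 in Control and 2.18% ± 1.51 in Tardbp (SD, n = 8; exact permutation p = 0.713), and that of the distal end, node 30, was 41.9% ± 15.4 and 46.0% ± 20.5 (p = 0.653, exact permutation). Transcript counts thus gave the distal end over 40% where its Psi was under 0.02. The study itself reported a change of 3′ end use in Tcf12, found by Whippet, which gave the Psi, and by DaPars on the aligned reads. DaPars was not rerun, and here the call of node 27 rests on the pooled Psi. It was kept at a probability over 0.95, where 0.285% of all nodes passed, and lost at a probability over 0.99, where 0.146% did. It was also kept at a Psi difference over 0.2 (0.353% of all nodes), and at a difference over 0.05 (0.569%) node 26 of Tcf12 and node 23 of Tcf3 passed with it.

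**Figure D4:**
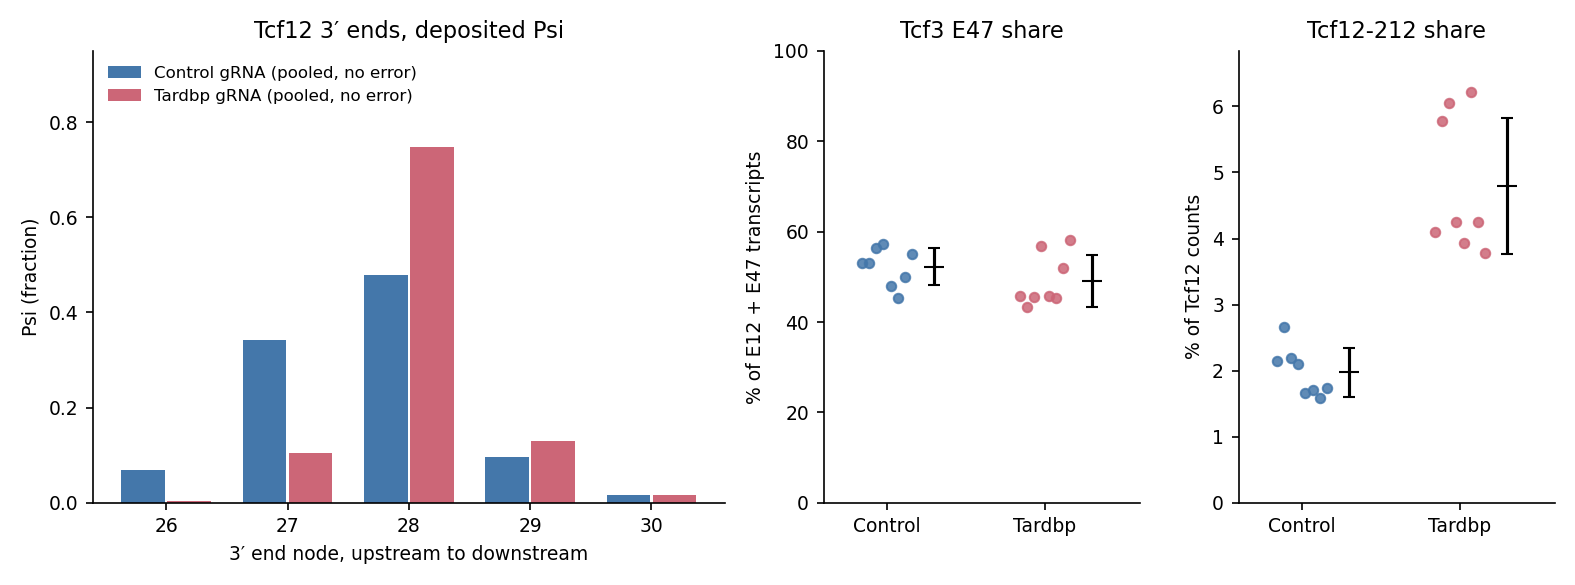
Left, deposited Psi of the 5 Tcf12 3′ ends in transcript order, pooled per group by the authors and without error. Middle and right, the share of E47 among Tcf3 transcripts and of Tcf12-212 among Tcf12 counts in each library, with mean and SD (n = 8 per group). Node 27 falls from 0.343 to 0.105 as node 28 goes from 0.480 to 0.747, and the E47 shares overlap. The Tcf12-212 shares run from 1.58% to 2.66% in Control and from 3.78% to 6.22% in Tardbp.

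Of the other nodes, 8 differed by over 0.1 in Psi without passing the probability threshold, 2 of Tcf12, 3 of Tcf3 and 3 of Tcf4. With node 27 that is 9 of 119, where 4.7% of all nodes differed by as much. The largest of Tcf3 was a transcript start, node 2, at 0.298 and 0.504, and the largest of Tcf4 was also a start, node 1, at 0.859 and 0.490. The single nodes of Id2 and Id3 differed by under 0.001. One internal exon of Tcf12 was among the 8, and it is printed as the only internal exon of Tcf12 with such a difference. It is node 20, 72 bases at chr9:71868999-71869070 on the minus strand.
Tcf12 exon of node 20: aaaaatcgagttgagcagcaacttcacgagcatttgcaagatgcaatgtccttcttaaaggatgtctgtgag

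The node 20 exon had a Psi of 0.228 in Control and 0.337 in Tardbp. Its inclusion rebuilt from transcript counts was 0.464 ± 0.166 and 0.511 ± 0.228 (SD, n = 8), with libraries from 0.234 to 0.680 and from 0.148 to 0.822, and a limma adjusted p of 0.910. In the same fit, 0 of the 27 member nodes with a value were called and 0 had an unadjusted p under 0.05, where 0.647% of 17315 nodes were called and 0.237% were called with a difference over 0.1. The E12 exon, rebuilt in this way, was at 0.480 and 0.512 (adjusted p = 0.760, limma) and the E47 exon at 0.523 and 0.491 (adjusted p = 0.761, limma).

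The genes around the E and Id proteins were read from fixed lists, described by counts and medians beside a median log2 fold change of 0.046 over all tested genes. Of all tested genes, 46.7% were called, 23.5% higher and 23.3% lower, and 16.9% had groups that did not overlap. Each count below stands beside those shares. The other inhibitors were near absent, with Id4 at 0 in every library and Id1 below the filter. Of 10 partner helix-loop-helix factors, 2 were tested and both fell. Msc, a repressor that pairs with E proteins, went from 6.81 ± 4.81 to 0.482 ± 0.31 CPM (SD, n = 8; log2 fold change -3.82, SE 0.603). Bhlhe40, an activation-induced repressor, went from 192 ± 43.0 to 137 ± 13.1 CPM (-0.49, SE 0.108). Ascl2, Tal1 and Myod1 were at 0 in all libraries.

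Of 11 E protein cofactors, 10 were tested, and 3 rose and 3 fell, with a median of -0.02. Ldb1, an adaptor in E protein complexes, rose by a log2 fold change of 0.62, and the acetyltransferases Kat2b and Crebbp by 0.43 and 0.34. The acetyltransferase Kat2a was at -0.43 and the co-repressor Cbfa2t2 at -0.32. Cbfa2t3 was at -0.24 (adjusted p = 0.0439, edgeR), a call lost without any 1 of Control libraries 2, 4, 6, 7 and 8 and Tardbp libraries 1, 3 and 5, with adjusted p-values of up to 0.0864.

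Of 19 genes known as E protein targets in lymphocytes, 18 were tested, 8 rose and 6 fell, with a median of 0.33. Gfi1, a transcriptional repressor, rose from 3.66 to 6.87 CPM (log2 fold change 0.91), Cd3g, a chain of the T cell receptor complex, from 447 to 752 CPM (0.75), and Cxcr5, a follicle-homing receptor, from 4.73 to 9.70 CPM (1.04). The interleukin-7 receptor gene Il7r fell from 73.3 to 51.5 CPM (-0.51). Ptcra, the pre-T alpha chain, was at 0.261 and 0.162 CPM (-0.68). The Cxcr5 call was lost without any 1 of Control libraries 3 to 8 and Tardbp libraries 1 to 4, with adjusted p-values of up to 0.133. The Ptcra call was lost without any 1 of Control libraries 3, 6 and 7 and Tardbp libraries 3 and 7, with adjusted p-values of up to 0.081.

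Of 15 regulators of Id2 and Id3, all tested, 5 rose and 8 fell, with a median of -0.16. The Egr factors, which act on Id3 downstream of the T cell receptor, rose together. Egr1 went from 14.8 ± 4.53 to 32.1 ± 4.92 CPM (SD, n = 8; log2 fold change 1.12, SE 0.170) with no overlap, Egr2 from 8.25 ± 3.82 to 25.1 ± 8.44 CPM (1.6, SE 0.262) and Egr3 from 1.38 ± 0.446 to 4.01 ± 1.65 CPM (1.54, SE 0.265). Prdm1, the gene of Blimp-1, a repressor of Id3, went from 14 ± 3.52 to 6.97 ± 3.01 CPM (-1.0, SE 0.218). The signal transducers Stat5b and Stat4 were at -0.72 and -0.45 (SE 0.075 and 0.045), and neither overlapped between groups.

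Of 10 effector genes linked to Id2, all tested, 5 rose and 2 fell, with a median of 0.70. Ifng, Klrg1 and Gzma rose by log2 fold changes of 1.30, 1.02 and 0.83, and Prdm1 and Tbx21 fell, the latter by 0.44. The summed level of these 10 genes had a median of 678 CPM in Control and 660 CPM in Tardbp libraries. For protein, the study reported lower IFNγ staining and secretion in Tardbp knockout cells after restimulation. Of 12 memory genes linked to Id3, all tested, 10 rose and 2 fell, with a median of 0.68. Xcl1, a chemokine, went from 73.3 ± 21.3 to 206 ± 75.6 CPM (SD, n = 8; 1.49), Eomes, a T-box factor, from 26.1 to 54.2 CPM (1.06), and Cxcr5 as above. Il7r and Ccr7 fell, by 0.51 and 0.22. The Eomes call was lost without Tardbp library 1, where the log2 fold change was 0.85 with an adjusted p of 0.0566. The lists share genes, among them Prdm1, Cxcr5, Il7r and Ccr7, so they are not separate evidence.

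**Figure D5:**
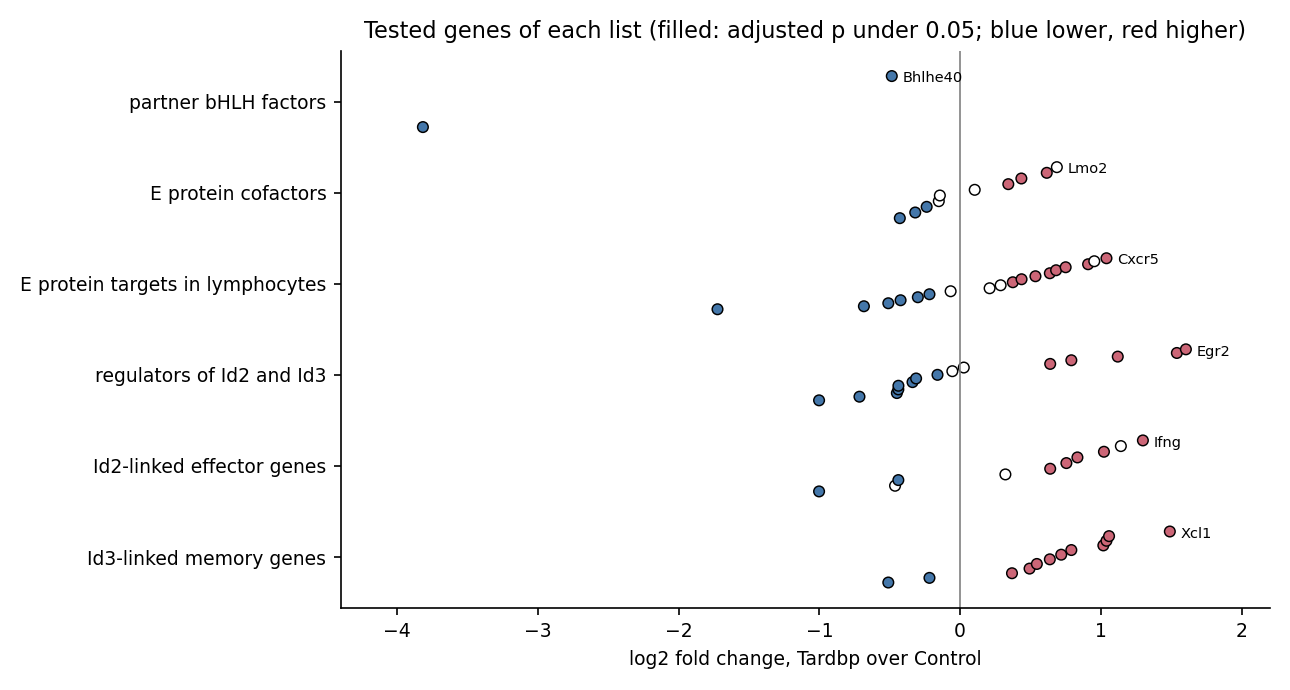
Log2 fold change, Tardbp over Control, of every tested gene of 6 lists around the E and Id proteins. Filled points have an edgeR adjusted p under 0.05, red for higher and blue for lower, and the highest gene of each list is named. In the list linked to Id3, 10 of 12 points are filled and above 0, where 23.5% of all tested genes were called higher. In the list of regulators the Egr factors lie from 1.12 to 1.6 and Prdm1 at -1.0.

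The remaining marker lists moved in part with the groups, and their part in the results was not tested. Over all tested genes, 23.5% were called higher and 23.3% lower. Of 9 tested myeloid markers 2 rose, Lyz2 (log2 fold change 1.58) and S100a8 (2.56), and Batf3 fell (-2.04), with sums of 53.8 to 72.2 CPM and 58.6 to 118 CPM. The S100a8 call was lost without any 1 of Control libraries 1, 3, 5 and 7 and Tardbp libraries 1, 4 and 5, with adjusted p-values of up to 0.081. Of 5 tested markers of NK and innate lymphoid cells, Il1rl1, Rora and Gata3 fell, with sums of 113 to 196 and 91.9 to 136 CPM. Of 5 CD4 T cell markers 1 rose, Ctla4, with sums of 35.9 to 68.0 and 48.1 to 67.9 CPM, a call lost on leaving out any 1 of 12 libraries, all but Control libraries 5, 7 and 8 and Tardbp library 2, with adjusted p-values of up to 0.107. Red cell markers, 4 of 5 tested called higher, summed to 0.442 to 17.8 CPM in Control and 9.10 to 182 CPM in Tardbp.

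The genes whose log2 CPM followed each member most closely over the 16 libraries, among 8976 genes, are given as a description, since all points share the groups and libraries. Id3 was most like Trbc2, Trbv12-1 and Cd3g, parts of the T cell receptor complex, with Pearson's r of 0.984, 0.982 and 0.978. After the group means were removed, r was 0.892, 0.869 and 0.843. Tcf4 was most like Ccr6, a chemokine receptor (0.923), Popdc2 (0.887) and Axl, a receptor kinase (0.880). Tcf3 was most like Adpgk (0.933), Dtwd2 and Gltp, Tcf12 most like Nbr1 (0.884), Fam129a and Tyk2, and Id2 least closely followed, by Cdc42se1 (0.806), Rab19 and Osbpl5.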

How the data were processed

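RNA was prepared with the miRNeasy Micro kit, amplified with SMART-Seq v4 and sequenced in pairs by the authors, and the kit does not mark strand. Per the labels, reads were aligned to mm10 with HISAT2 2.1.0 and SAMtools 1.9 and assembled on GENCODE M21 with StringTie 2.1.0, and the authors used R 4.0.5 and DESeq2 1.30.1. The deposited gene and transcript tables hold estimated counts, in whole numbers, with 1.89 to 2.02 counts per read pair. The deposited splicing table holds Psi, a fraction from 0 to 1 pooled per group by Whippet, whose version is not given in the sources used here. Its columns of differences and probabilities are the authors' own comparison, and the probability served only to apply the study's threshold of 0.9. The RNA concentration and read pairs, deposited as scores without a unit, are the sequencing facility's per the file headers. Of each count table, 10 columns that match no sample were not used. Rows without a gene name, 0.0836% to 0.132% of counts, were left out.

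Genes and transcripts were tested with edgeR 4.0.16 (TMM, quasi-likelihood, minimum count 10 and minimum total 15) and limma 3.58.1 for transcript shares and rebuilt inclusion in R 4.3.3, with Benjamini-Hochberg adjustment over all features and a threshold of 0.05. DESeq2 1.42.0 was an alternative. TPM was computed from the deposited transcript counts and annotated lengths. Isoform classes were compared by exact permutation in scipy 1.17.1. Intervals are 95%. Scripts were tested on simulated data. Simulated log2 changes of 0.5 and 1.0 were called in 47% and 69% of changed genes, and in 5% and 23% of changed transcripts. Simulated share differences of 0.3 were called in 44%. A transcript or share that was not called may thus still differ. Only 200 features were changed in each simulation, where 46.7% of tested genes were called in the data. The rates are therefore not those for the members. Named were the members, transcripts over 5% of their gene that passed the filter (Tcf4-206 was added with its values known), Psi nodes past the difference and probability thresholds or with the largest difference of their gene, up to 3 called genes at each end of each list by fold change, and the 3 genes most like each member, except for items that are not reported here. The members and lists were chosen with earlier results of these data known. Alternatives were other normalisations and tests, no filter, covariates, library subsets, the replicate block and leaving out each library. Sequences are from GENCODE M21 transcripts, and protein sequences were not used here.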

Additional observations from a re-analysis of the deposited data

Results flagged for a closer look

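In 8 of 68 groups of 8 libraries, 1 library stood apart from the others by Dixon's ratio, which chance gives in about 1 in 20 groups. Tardbp library 3 had the lowest level of Tardbp itself among the Tardbp libraries, 110.4 CPM against 129.8 to 147.2 CPM. The same library had the highest share of Tcf3-207, 16.4% against 0.465% to 5.77%, and the lowest share of Tcf3-202, 9.89% against 20% to 25.5%. Control library 3 had the highest share of proximal Tcf12 ends, 10.1% against 0.886% to 3.30%, and of Tcf4-202, 33.7% against 0 to 10.1%. Tardbp library 4 had 47.1% of Tcf4 counts in Tcf4-202, against 0 to 18.9%, and Tardbp library 5 had 56.2% in Tcf4-207, against 0 to 25.1%. Control library 1 had 99.1% of Id3 counts in Id3-201, against 97.7% to 98.4%.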

How the results depend on the processing

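Of 1991 values recomputed under another setting, 1808 kept their direction and their side of the threshold. Leaving out 1 library gave 7265 to 7734 called genes and changed no call of the 5 genes. With RNA concentration added to the model, calls fell to 2697 genes, Tcf3 was at 0.0085 and Tcf4 at -0.81. Among libraries 1 to 3, 1696 genes were called and Tcf4 was at -0.40. RNA concentration did not overlap between the groups, and that subset holds 3 libraries of each. With the B cell and plasmacytoid marker level, without Pacsin1, as covariate, chosen after seeing the data, 0 genes were called by edgeR (1813 at an unadjusted p under 0.05). Tcf3 was then at 0.54, Tcf4 at -0.37, Id3 at 0.52 and Tardbp at -0.50. The cause was not tested. Same-numbered libraries correlated at -0.0048 to 0.16 and 2 of 8 over 0.1, and 2 Control and 3 Tardbp libraries correlated best with their own number. The replicate block gave 7645 called genes, changed no call of the 5 genes, and put Tcf4-203 at 0.58 and Tcf3-202 at 0.013 on the log2 scale. The share difference of Tcf12-202 was -0.0041 when length-scaled and -0.026 in libraries 4 to 8. At a probability over 0.99, 0 member nodes passed, and at a Psi difference over 0.05, 3 did. By counts the short Tcf12 forms differed by 1.26 percentage points.

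Leaving out 1 library turned the sign of uncalled transcript values only. On the log2 scale these ran from -1.22 to 0.54 for Tcf4-202, -0.59 to 0.53 for Tcf4-258, -1.09 to 0.68 for Tcf4-246, -0.76 to 0.16 for Tcf4-203, -0.21 to 0.043 for Tcf12-202, -0.020 to 0.098 for Tcf3-201, -0.15 to 0.061 for Tcf3-202 and -0.21 to 0.014 for Tcf3-204. As fractions of the gene they ran from -0.030 to 0.058 for Tcf4-202, -0.010 to 0.030 for Tcf4-246, -0.0031 to 0.0081 for Id2-201, -0.023 to 0.055 for Tcf12-202, -0.013 to 0.0040 for Tcf3-210, -0.011 to 0.021 for Tcf3-202 and -0.012 to 0.011 for Tcf3-204. The marker covariate was not run for the listed genes. Of the 44 named, 0 changed sign in the other settings, 22 were still called with RNA concentration as covariate and 17 in libraries 1 to 3. Under upper-quartile scaling the calls of Cbfa2t3, Ccr7, Cd5, Gata3 and Ptcra were lost.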
